A study of Homo sapiens with 3 samples.

Results

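The promoters of recently duplicated primate gene families were examined in chromatin immunoprecipitation sequencing (ChIP-seq) data for PAF1 and PHF5A. Their windows on chromosomes 1 to 22 were taken by a pattern on the gene symbol that covers 11 families, NBPF, NPIP, GOLGA6, GOLGA8, PRAMEF, TBC1D3, SPDYE, TRIM49, TRIM64, USP17L and REXO1L. The pattern matched 184 windows, of which TBC1D30, TBC1D31 and TBC1D32 match by prefix only, as single genes of the wider TBC-domain group. The remaining 181 windows, under 172 symbols, are described here, out of 56978 windows on chromosomes 1 to 22 and 60123 in all. The families were chosen by their signal in the same PAF1 and PHF5A columns, so their levels are given as a description.

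All chromatin came from SW1990 cells, an established line of human pancreatic ductal adenocarcinoma, in a population labelled SP, after fixation with EGS (1.5 mM) and formaldehyde (0.4%). The series holds 3 libraries of this chromatin. In the PAF1 library, titled PD2, an antibody against PAF1 was used, and in the PHF5A library one against PHF5A. The remaining library is input chromatin and was not analysed here. The deposited value is the mean signal of a 2500 bp window that begins 2000 bp before a transcription start and ends 500 bp after it. The sources used here do not give what a unit of signal stands for. There was 1 library per antibody, so no value has a replicate check, no test was made, and a value after ± is the counting standard error of that library. Summed over bins and windows, the signal was 4810548 with PAF1 and 4891421 with PHF5A. Windows can overlap, so these sums are not sequencing depth. On chromosomes 1 to 22 the median window had a signal of 4.22 (PAF1) and 4.37 (PHF5A).

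PAF1 is a subunit of the complex that travels with RNA polymerase II and takes part in elongation. PHF5A belongs to the SF3b complex, which recognises branch points in introns. The families arose by segmental duplication in the primate lineage, and many of their copies differ by few bases. A short read that fits several such copies cannot be placed at a single one by its sequence. The sources used here do not say how such reads were handled.

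The sequences below show the NBPF copies of highest and lowest signal, which differ in how much of their promoter recurs in the RefSeq promoter table, and a pair of near-identical promoters from each of 2 other families. Each is the stretch of 250 bases upstream of a RefSeq start (GRCh38.p14), written 5′ to 3′ on the gene's strand. Capitals mark bases that lie in a stretch of at least 50 bases found, on either strand, in another promoter of the RefSeq table. NBPF1 (chr1:16613565-16613814, minus strand) and NBPF10 (chr1:146144805-146145054, minus strand) are the highest and the lowest NBPF copy. Only promoters of that table were searched, so copies elsewhere in the genome do not count. The pairs GOLGA8J (chr15:30082705-30082954, plus strand) with GOLGA8T (chr15:30134801-30135050, plus strand) and TRIM49 (chr11:89808576-89808825, minus strand) with TRIM49C (chr11:90030856-90031105, plus strand) were picked as near-identical pairs after their values were seen.
NBPF1: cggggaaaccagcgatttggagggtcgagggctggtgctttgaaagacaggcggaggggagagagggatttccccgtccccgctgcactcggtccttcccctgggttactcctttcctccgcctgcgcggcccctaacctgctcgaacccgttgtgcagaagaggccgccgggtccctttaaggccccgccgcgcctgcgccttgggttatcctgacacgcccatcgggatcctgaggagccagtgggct
NBPF10: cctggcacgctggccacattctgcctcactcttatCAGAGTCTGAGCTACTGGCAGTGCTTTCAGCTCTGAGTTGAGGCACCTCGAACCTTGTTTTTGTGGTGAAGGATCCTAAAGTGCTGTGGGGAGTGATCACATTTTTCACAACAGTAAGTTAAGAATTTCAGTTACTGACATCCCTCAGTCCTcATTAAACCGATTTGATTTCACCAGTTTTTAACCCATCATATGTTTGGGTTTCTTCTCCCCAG
GOLGA8J: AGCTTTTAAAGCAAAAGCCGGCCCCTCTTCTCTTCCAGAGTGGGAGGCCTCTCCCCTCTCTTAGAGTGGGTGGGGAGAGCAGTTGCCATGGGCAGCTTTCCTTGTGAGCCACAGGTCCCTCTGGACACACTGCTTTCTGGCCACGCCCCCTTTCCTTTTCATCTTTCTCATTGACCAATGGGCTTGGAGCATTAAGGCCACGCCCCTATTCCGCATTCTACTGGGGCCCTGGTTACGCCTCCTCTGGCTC
GOLGA8T: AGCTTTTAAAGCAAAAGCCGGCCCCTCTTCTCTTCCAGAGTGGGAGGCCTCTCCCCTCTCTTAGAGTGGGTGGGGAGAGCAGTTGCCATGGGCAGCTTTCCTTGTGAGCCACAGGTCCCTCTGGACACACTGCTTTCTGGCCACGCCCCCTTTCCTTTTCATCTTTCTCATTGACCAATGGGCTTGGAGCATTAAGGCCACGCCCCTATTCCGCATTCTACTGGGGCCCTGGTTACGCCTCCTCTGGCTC
TRIM49: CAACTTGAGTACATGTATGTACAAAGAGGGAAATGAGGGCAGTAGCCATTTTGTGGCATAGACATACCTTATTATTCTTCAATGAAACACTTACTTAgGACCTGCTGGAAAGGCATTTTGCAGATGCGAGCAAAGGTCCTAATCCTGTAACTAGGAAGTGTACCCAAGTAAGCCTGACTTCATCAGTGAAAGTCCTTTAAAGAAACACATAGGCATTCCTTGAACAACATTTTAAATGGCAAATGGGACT
TRIM49C: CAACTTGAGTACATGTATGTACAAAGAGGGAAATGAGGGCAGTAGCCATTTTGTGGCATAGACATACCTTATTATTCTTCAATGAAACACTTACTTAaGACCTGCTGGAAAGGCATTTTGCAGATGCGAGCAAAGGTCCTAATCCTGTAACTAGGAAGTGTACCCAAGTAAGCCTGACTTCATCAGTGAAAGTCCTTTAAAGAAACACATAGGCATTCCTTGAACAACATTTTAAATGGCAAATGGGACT

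The NBPF1 stretch has 0 bases in capitals and the NBPF10 stretch has 214. NBPF1 had a PAF1 signal of 13.22 ± 1.78 and a PHF5A signal of 12.29 ± 1.72, while NBPF10 was listed at 0 in both libraries. Their promoters also differ in GC content, at 67.7% and 47%. The pair holds the extremes of the family. NBPF3, with 0% of its 50-base stretches found in another promoter, had 2.22 (PAF1) and 2.29 (PHF5A). NBPF9, with 68.1%, had 1.88 and 2.29, and NBPF4, with 57.8%, had 0 and 0.05. The GOLGA8J and GOLGA8T promoters were identical over the 300 bases compared (250 upstream and 50 downstream of the start). GOLGA8J had signals of 1.33 ± 0.566 (PAF1) and 1.00 ± 0.493 (PHF5A), and GOLGA8T was listed at 0 in both. TRIM49 and TRIM49C, whose promoters matched at 299 of 300 bases, had PAF1 signals of 0.83 ± 0.448 and 1.00 ± 0.504 and PHF5A signals of 1.06 ± 0.507 and 0.88 ± 0.477. The TRIM49 pair thus differed by less than its counting errors in both libraries. In the identical GOLGA8 pair the count of 0 leaves room for signals as high as 0.721 (PAF1) or 0.725 (PHF5A) in a window of 18 bins, within 2 counting errors of GOLGA8J, so a difference between these copies was not detectable at this depth.

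Over all 181 windows the families had little signal with either antibody. Their median signal was 0.33 with PAF1 and 0.39 with PHF5A, which is 2.51 and 2.45 lower on the log2(signal + 0.5) scale than the median window (log2 differences of -2.51 and -2.45). At or under the counting floor, the signal that a count of 0 allows (3 counts times the dispersion, 0.721 to 0.763 for PAF1 and 0.725 to 0.768 for PHF5A), lay 114 family windows with PAF1, against a background of 5.82% of all windows, and 104 with PHF5A, against 5.37%. A signal of 0 in both libraries was listed for 58 family windows. The families make up 0.318% of windows and 6.08% of the 954 windows listed at 0 in both libraries. At least 2 times the median window, as a ratio of signal + 0.5, was reached by 2 family windows in each library, NBPF1 and TBC1D3P5, where the background is 7.73% of windows for PAF1 and 6.51% for PHF5A. Above the library median stood 13 family windows with PAF1 and 7 with PHF5A.

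**Figure D1:**
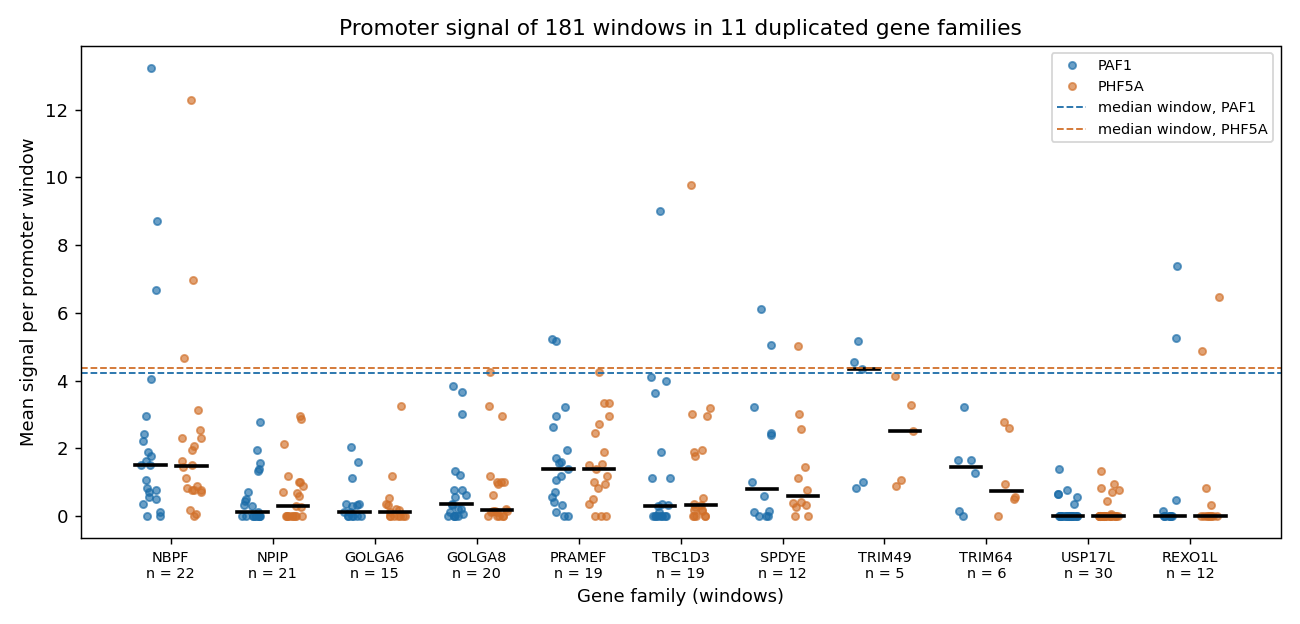
Mean signal (vertical axis) of each family window in the PAF1 library (left points) and the PHF5A library (right points) by gene family (horizontal axis), where black bars are family medians and dashed lines are the median windows of each library (4.22 and 4.37). Most windows lie near 0, and single copies such as NBPF1 (13.22 with PAF1 and 12.29 with PHF5A) stand far above their family.

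The NBPF family encodes proteins built from Olduvai domains and lies mostly on chromosome 1. Its 22 windows had median signals of 1.50 (PAF1) and 1.48 (PHF5A), and 8 and 4 of them lay at or under the floor. Above the library medians stood 3 copies in each library. Besides NBPF1 these were the pseudogene NBPF21P on chromosome 3, with 6.66 ± 1.27 (PAF1) and 6.98 ± 1.30 (PHF5A), and NBPF7, with 8.70 ± 1.49 (PAF1) and 4.67 ± 1.09 (PHF5A). NBPF1 (ENSG00000219481, chromosome 1, 16613062 to 16615562 of hg38) had the highest signal of all family windows in both libraries. The window of NBPF1 overlaps that of RP5-1182A14.5, so the signal cannot be assigned to either start alone, and 21 family windows in all overlap a window outside the families. NBPF9, by contrast, had 1.88 ± 0.674 (PAF1) and 2.29 ± 0.744 (PHF5A), and NBPF10 was the lowest copy. The related gene PDE4DIP (myomegalin), which shares sequence with the family, had 0.17 in both libraries, under the floor.

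The NPIP family is the group of nuclear pore complex interacting protein genes spread over chromosome 16 by a duplicated block. Its 21 windows had medians of 0.11 (PAF1) and 0.29 (PHF5A), and 9 were listed at 0 in both libraries. At or under the floor lay 8 (PAF1) and 7 (PHF5A) of the 8 NPIPA windows, and 6 and 5 of the 10 NPIPB windows. The 8 NPIPA windows had medians of 0 in both libraries, and 6 of the 8 were listed at 0 in each. The 10 NPIPB windows had medians of 0.61 (PAF1), which lies under the floor, and 0.86 (PHF5A). NPIPB7 was the highest, at 2.77 ± 0.817 and 2.96 ± 0.846, followed by NPIPB8, at 1.55 ± 0.611 and 2.85 ± 0.830. No NPIP window exceeded the median window in either library.

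GOLGA6 and GOLGA8 are golgin-like coiled-coil families at the duplications of chromosome 15. The 15 GOLGA6 windows had a median of 0.11 in both libraries, and 12 (PAF1) and 13 (PHF5A) lay at or under the floor. GOLGA6L2 was the highest, with 2.05 ± 0.703 (PAF1) and 3.24 ± 0.885 (PHF5A), followed by the pseudogene GOLGA6L7P, with 1.58 ± 0.636 and 1.18 ± 0.550. The 20 GOLGA8 windows had medians of 0.34 (PAF1) and 0.19 (PHF5A). Their highest windows were the pseudogene GOLGA8UP, with 3.83 ± 0.960 (PAF1) and 4.24 ± 1.01 (PHF5A), and GOLGA8B, with 3.66 ± 0.939 and 3.24 ± 0.885. GOLGA8A, 151 kb from GOLGA8B, had 0.77 ± 0.432 (PAF1) and 1.00 ± 0.493 (PHF5A). GOLGA2, a single-copy golgin of the Golgi matrix, had 7.05 ± 1.30 (PAF1) and 4.97 ± 1.10 (PHF5A), above every GOLGA6 and GOLGA8 copy in both libraries.

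PRAMEF genes encode leucine-rich repeat relatives of the cancer-testis antigen PRAME and form 1 array of 19 windows on chromosome 1. They had medians of 1.38 (PAF1) and 1.39 (PHF5A), and 7 and 5 lay at or under the floor. With PAF1 both ends of the array stood above every window between them and above the median window, while with PHF5A neither end reached the median window. PRAMEF12, the first window, had 5.23 ± 1.15 (PAF1) and 4.26 ± 1.04 (PHF5A), and PRAMEF20, the last, had 5.16 ± 1.11 and 3.35 ± 0.901. The 17 windows between them ranged between 0 and 3.22 with PAF1 and between 0 and 3.35 with PHF5A, with medians of 1.17 in both, and with PHF5A the inner copy PRAMEF18 equalled PRAMEF20 at 3.35. PRAMEF8 and PRAMEF9 were listed at 0 in both libraries. PRAME itself, on chromosome 22, had 5.27 ± 1.13 (PAF1) and 4.24 ± 1.01 (PHF5A), a level close to that of PRAMEF12.

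**Figure D2:**
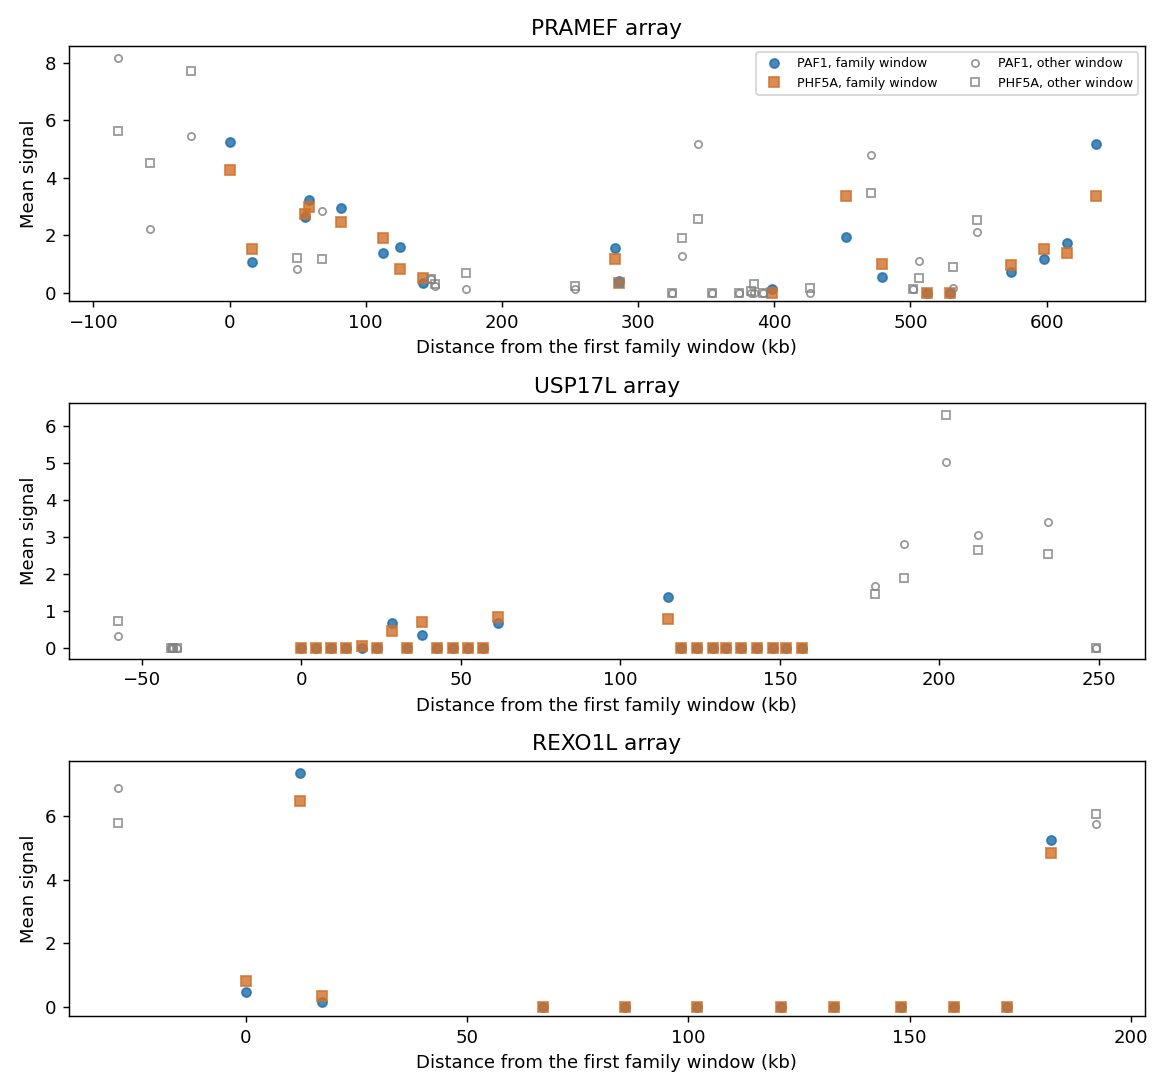
Mean signal (vertical axis) against distance from the first family window in kb (horizontal axis) for the PRAMEF array, the USP17L array of chromosome 4 and the REXO1L array, with filled points for family windows, open grey points for other windows, circles for PAF1 and squares for PHF5A. PRAMEF12 and PRAMEF20 stand at the ends of the PRAMEF array, most USP17L windows lie at 0, and REXO1L3P (7.38 with PAF1 and 6.48 with PHF5A) and REXO1L6P (5.27 and 4.86) stand out among REXO1L copies at 0.

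TBC1D3 is a hominoid family of TBC-domain genes, most of them on chromosome 17. Its 19 windows had medians of 0.29 (PAF1) and 0.33 (PHF5A). The 8 windows with pseudogene names (TBC1D3P) had medians of 1.50 (PAF1) and 1.92 (PHF5A), against 0 and 0.17 in the 11 windows of the lettered genes and TBC1D3. In each group some windows overlap one another, so it holds fewer positions than windows. Several TBC1D3P windows also overlap windows outside the families, so their signal cannot be assigned to the pseudogene alone. The pseudogene TBC1D3P5 had 9.0 ± 1.51 (PAF1) and 9.76 ± 1.58 (PHF5A), the highest of the family in both libraries. TBC1D3J was the highest of the lettered genes, with 4.0 ± 0.980 (PAF1) and 3.18 ± 0.878 (PHF5A), and the other 10 windows of that group lay at or under the floor in each library. TBC1D1, a single gene whose product shares the TBC domain, had 1.00 ± 0.490 (PAF1) and 1.39 ± 0.581 (PHF5A).

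SPDYE genes belong to the Speedy/RINGO family, whose proteins bind and activate cyclin-dependent kinases. The 12 windows had medians of 0.79 (PAF1) and 0.595 (PHF5A), and 6 lay at or under the floor in each library. SPDYE4, the only one on chromosome 17, was the highest, with 6.11 ± 1.25 (PAF1) and 5.03 ± 1.13 (PHF5A). SPDYE7P on chromosome 7 followed, with 5.05 ± 1.13 (PAF1) and 3.01 ± 0.879 (PHF5A), while 2 SPDYE8P windows were listed at 0 in both libraries. SPDYA, a single gene of the Speedy group, had 5.23 ± 1.15 (PAF1) and 5.79 ± 1.22 (PHF5A).

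TRIM49 and TRIM64 are tripartite-motif families with a RING domain, clustered on chromosome 11. TRIM49 was the only family with no window at or under the floor in either library. The medians of its 5 windows were 4.33 with PAF1 and 2.51 with PHF5A. TRIM49D1 had 5.17 ± 1.15 (PAF1) and 4.14 ± 1.03 (PHF5A), and TRIM49D2 had 4.33 ± 1.02 and 3.29 ± 0.893, but these windows overlap and share signal. TRIM49B had 4.55 ± 1.05 (PAF1) and 2.51 ± 0.780 (PHF5A). The 6 TRIM64 windows had medians of 1.46 (PAF1) and 0.745 (PHF5A), with the pseudogene TRIM64FP on chromosome 2 highest at 3.23 ± 0.907 and 2.60 ± 0.817. TRIM64 itself was listed at 0 in both libraries, and TRIM21, an antibody receptor with the same domain order, had 4.72 ± 1.07 (PAF1) and 4.75 ± 1.07 (PHF5A).

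USP17L genes encode deubiquitinases and sit in tandem repeats on chromosomes 4 and 8. Of their 30 windows, 23 were listed at 0 in both libraries, and 28 (PAF1) and 26 (PHF5A) lay at or under the floor. The highest was USP17L24 on chromosome 4, with 1.38 ± 0.578 (PAF1) and 0.78 ± 0.435 (PHF5A), followed by USP17L2 on chromosome 8, with 0.77 ± 0.432 and 1.34 ± 0.570. No copy approached the median window. USP32, a single gene of the same enzyme class, had 7.94 ± 1.42 (PAF1) and 6.27 ± 1.27 (PHF5A).

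REXO1L genes are related to the RNA exonuclease gene REXO1, and all 12 windows carry pseudogene names in a chromosome 8 array spanning 185 kb. The array held copies at 0 and copies of high signal. In both libraries 8 of the 12 were listed at 0. REXO1L3P had 7.38 ± 1.33 (PAF1) and 6.48 ± 1.25 (PHF5A), and REXO1L6P, the last copy, had 5.27 ± 1.13 and 4.86 ± 1.08. Both exceeded the median window in each library. The copies nearest to REXO1L3P, REXO1L8P at 12.2 kb and REXO1L1P at 4.98 kb, had 0.47 ± 0.346 and 0.16 (PAF1) and 0.82 ± 0.461 and 0.33 (PHF5A). REXO1 had 2.0 ± 0.693 (PAF1) and 1.34 ± 0.570 (PHF5A).

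Each family window was then set against its surroundings, the windows outside the families that do not overlap it and whose centres lie within 500 kb. The family windows had 10 to 96 such neighbours, with a median of 36. Their neighbourhoods were themselves low, since the median over family windows of the neighbours' median signal was 2.16 for PAF1 and 1.89 for PHF5A. The family windows were lower still, with median log2 differences from neighbours of -1.29 (PAF1) and -1.28 (PHF5A). At least 2 times below their neighbours lay 101 family windows with PAF1, where the background is 10.5% of windows, and 100 with PHF5A, where it is 9.21%. At least 2 times above them lay 14 with PAF1 and 13 with PHF5A, where the backgrounds are 6.45% and 5.15%. With family windows at or under the floor in both libraries left out, and all neighbours kept, both medians became -0.08, and within 250 kb they became -0.63 (PAF1) and -0.66 (PHF5A), so the size of this difference rests on the windows near 0 and on the distance chosen.

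The level of a family window followed that of its neighbours weakly. Spearman's rho across the 181 windows was 0.0572 for PAF1 and 0.127 for PHF5A, against 0.50 and 0.535 across the other windows of chromosomes 1 to 22. Windows of 1 array share most of their neighbours, so these coefficients are descriptions. By family, the median log2 difference from neighbours was lowest for REXO1L, at -3.65 in both libraries. It was -2.21 (PAF1) and -2.71 (PHF5A) for TBC1D3, and -2.37 and -2.26 for USP17L. PRAMEF was the only family above its neighbours, at 0.49 (PAF1) and 0.26 (PHF5A), and GOLGA8 was near them, at -0.23 in both. The PRAMEF neighbours were low, with a median signal of 0.83 (PAF1) and 1.22 (PHF5A) around PRAMEF12.

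**Figure D3:**
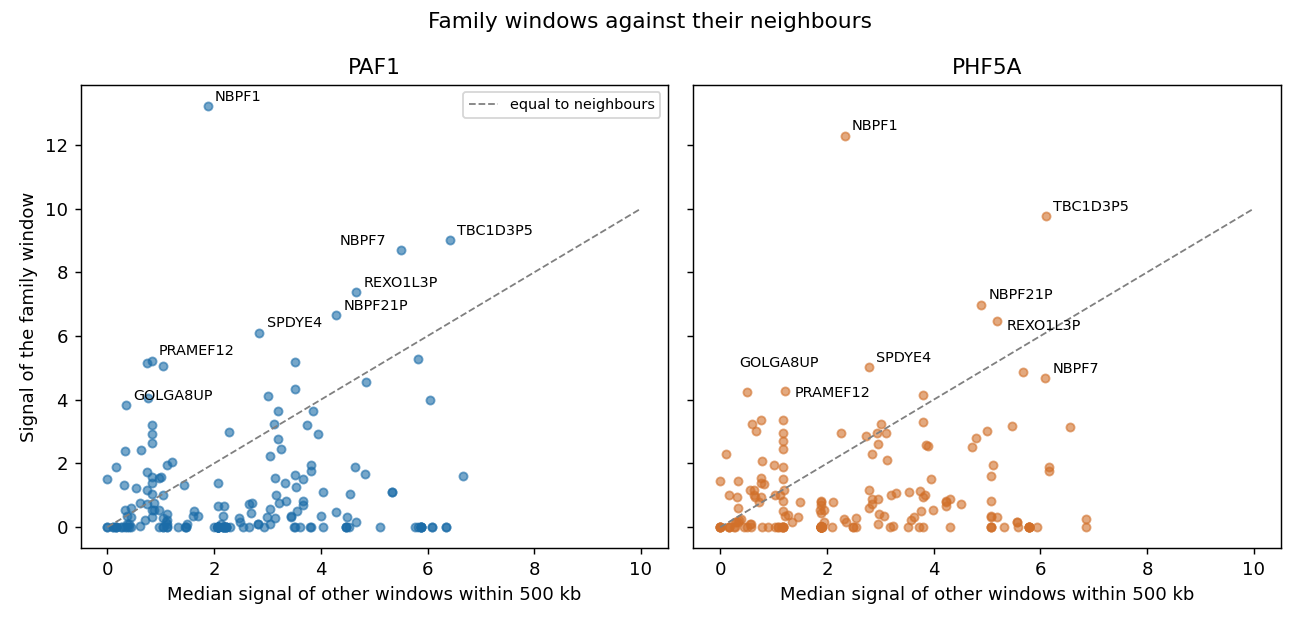
Signal of each family window (vertical axis) against the median signal of other windows within 500 kb (horizontal axis) in the PAF1 library (left) and the PHF5A library (right), with a dashed line of equality and selected copies named. Most points lie below the line, and NBPF1 lies farthest above it, at 13.22 against 1.88 for PAF1 and 12.29 against 2.33 for PHF5A.

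Copies were called outlying when their mean log2 signal over both libraries differed from the family median by more than 2 (log2). There were 14 such copies, all of them higher than their family. No copy could be far lower in families whose median lies near the floor. In NBPF1 the signal + 0.5 was 5.76 times (PAF1) and 4.52 times (PHF5A) that of the neighbours, and 0 of 50 neighbours were higher in either library. GOLGA8UP stood 5.09 times (PAF1) and 4.74 times (PHF5A) above neighbours of 0.35 and 0.5, and its 3 family copies within 500 kb reached at most 0.35 and 0.94. SPDYE7P stood 3.58 times (PAF1) and 3.0 times (PHF5A) above its neighbours, and SPDYE4 1.97 times and 1.68 times. GOLGA6L2 stood 1.48 times (PAF1) and 3.43 times (PHF5A) above neighbours of 1.22 and 0.59.

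The remaining outlying copies were, like SPDYE4, less than 2 times above or below their surroundings in both libraries. TBC1D3P5 had 9.0 (PAF1) and 9.76 (PHF5A) among neighbours of 6.42 and 6.11, which is 1.37 and 1.55 times as signal + 0.5. REXO1L3P stood 1.53 times (PAF1) and 1.23 times (PHF5A) above its neighbours, and REXO1L6P reached 0.912 and 0.867 of theirs. TBC1D3J lay below its neighbours, at 0.687 (PAF1) and 0.616 (PHF5A) of them, while its 4 family copies within 500 kb reached at most 0 (PAF1) and 0.27 (PHF5A). GOLGA8B was at 1.13 times (PAF1) and 1.07 times (PHF5A) its neighbours and GOLGA8VP at 1.26 and 1.25 times. TBC1D3P6 was at 1.31 times (PAF1) and 0.961 times (PHF5A), TBC1D3P7 at 0.951 and 0.638 times, and NPIPB7 at 0.885 and 1.01 times.

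Sequence sharing between promoters was measured as the share of the 251 stretches of 50 bases in a RefSeq promoter of 300 bases that occur at another place in the table of 35116 promoters. A RefSeq start lay in 74 family windows, with the same symbol in 59 and another symbol in 15. The promoter table used holds no promoter of chromosome 8 and none for the USP17L copies of chromosome 4. USP17L and REXO1L were therefore not covered, nor was any other window or copy on chromosome 8. Among these 74 windows, signal was lower where more of the promoter was shared. The 13 windows with nothing shared had medians of 1.94 (PAF1) and 2.57 (PHF5A), and 4 lay at or under the floor in each library. Among those 4, the GOLGA6C and GOLGA6D windows overlap and were matched to the same promoter. The 11 windows with up to 50% shared had medians of 1.55 (PAF1) and 1.45 (PHF5A). In the 32 windows with more than 50% but not all shared the medians were 0.34 and 0.415, and in the 18 with every stretch shared they were 0 in both, with 16 (PAF1) and 17 (PHF5A) at or under the floor. Spearman's rho between the share and the signal was -0.448 for PAF1 and -0.511 for PHF5A across the 74 windows, several of which share a promoter sequence.

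Windows outside the families showed the same order. Of the 17087 with a RefSeq start, 16523 with nothing shared had medians of 3.77 (PAF1) and 4.08 (PHF5A), 328 with up to 50% shared had 2.58 and 2.73, 159 with more than 50% had 0.47 and 0.55, and 77 with all shared had 0 in both. Family windows with more than 50% shared, at 0.34 (PAF1) and 0.415 (PHF5A), were thus close to other windows of that class, while those with nothing shared had lower medians than other windows of theirs. The median GC content of family promoters with nothing shared was 49.3%, against 61.7% in other promoters of that class, and its part in the difference was not tested. TRIM49D2, with 70.5% of stretches shared and signals of 4.33 (PAF1) and 3.29 (PHF5A), was the highest family window with more than 50% shared. Its window overlaps that of TRIM49D1, whose promoter had 0% shared. Sharing was measured over 300 bases and signal over 2500 bp, so a window can hold sequence that differs in sharing from its promoter. The promoters in both NBPF14 windows are those of NOTCH2NLB and NOTCH2NLC in RefSeq and were left out of the comparison of pairs. Of 286 pairs of promoters of the same family, 53 matched at 270 or more of 300 bases and 4 were identical. Both windows had a signal under 1 in 62.3% (PAF1) and 66.0% (PHF5A) of the 53 near-identical pairs, against 35.2% and 36.5% of the other 233 pairs. Pairs share windows and families, so these shares are a description. They pool families that differ in both identity and signal, as the median pair matched at 269 bases in GOLGA8 and 12.5 in NBPF. The contrast did not hold inside every family. With PAF1, all compared GOLGA8 windows but GOLGA8J had under 1, in near-identical and other pairs alike. Each near-identical PRAMEF pair held a window with a PAF1 signal over 1. Whether the placement of reads that fit several copies accounts for the low values was not tested.

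**Figure D4:**
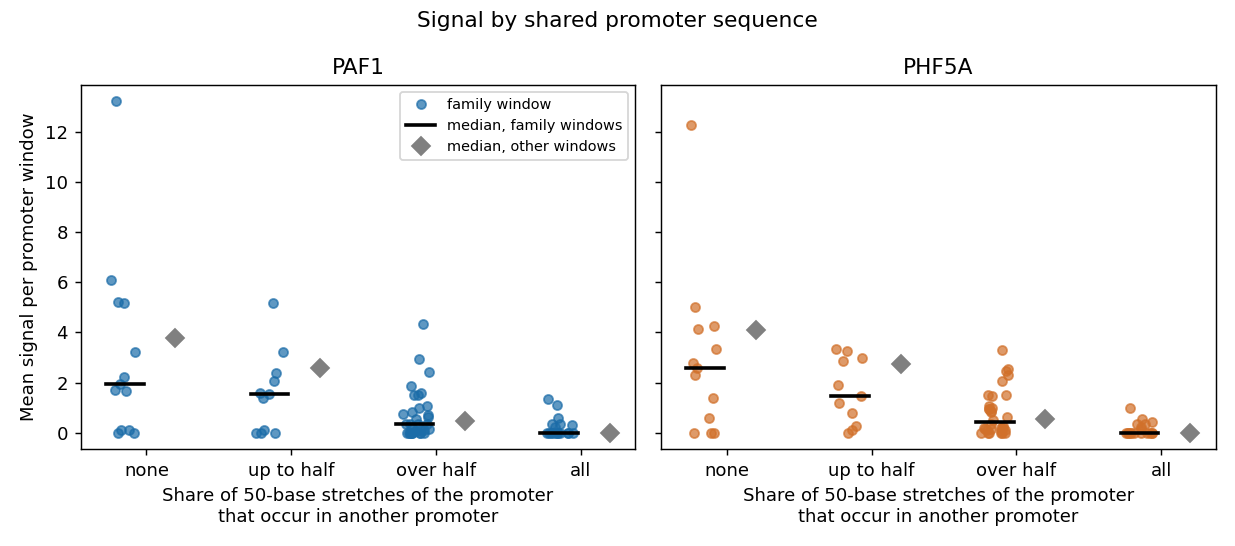
Mean signal (vertical axis) of the 74 family windows with a RefSeq start (points, with black bars for medians) by the share of 50-base stretches that occur in another promoter (horizontal axis), for PAF1 (left) and PHF5A (right), with grey diamonds for the medians of other windows. Medians fall to 0 in both libraries where every stretch is shared, in family windows as in other windows.

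Signal was also set against the number of family copies nearby. Copies whose windows overlap were not counted as nearby, so some windows counted as having no other copy overlap one of their family. The 42 windows with no other copy of their family within 500 kb, counted in this way, had medians of 1.44 (PAF1) and 1.31 (PHF5A). The 84 windows with 1 to 9 copies nearby had 0.31 and 0.33, and the 55 with 10 or more had 0 in both. These 55 windows are 3 arrays, 24 USP17L windows, 12 REXO1L windows and 19 PRAMEF windows. The median of 0 holds for USP17L and REXO1L, while PRAMEF, with 11 to 18 copies nearby, had medians of 1.38 (PAF1) and 1.39 (PHF5A), close to those of windows with no copy nearby. Pooled over the families, pseudogene names did not mark the low windows. The 52 windows with such names had medians of 0.605 (PAF1) and 0.635 (PHF5A), against 0.33 in both libraries in the other 129. All of these medians lie under the floor. At or under it lay 53.8% (PAF1) and 51.9% (PHF5A) of the windows with such names, against 66.7% and 59.7% of the others. The groups hold the families in different shares, and this was not adjusted for.

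PAF1 and PHF5A gave much the same ranking of family windows, with Spearman's rho of 0.940 across all 181, of which 58 tie at 0 in both libraries, and 0.811 across the 64 over the floor in both libraries, against 0.838 across all windows of chromosomes 1 to 22. None of the 64 had 2 times more signal + 0.5 with either antibody, relative to the library medians, where the background over the floor is 1.33% of windows for PAF1 over PHF5A and 1.69% for PHF5A over PAF1. The median log2 difference (PAF1 minus PHF5A) of the 64 was 0.18, and 43 were higher with PAF1 and 21 with PHF5A. That is 67.2% higher with PAF1 in the family windows, against 50.8% in other windows over the floor. The other windows were not matched to the 64 in signal, and some of the 64 overlap one another and share signal. A window listed at 0 in both libraries has a difference of 0.05 by the centring alone, which is also the median over all 181.

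The largest differences toward PAF1 were in NBPF17P (0.94), with 4.05 ± 0.987 (PAF1) and 1.95 ± 0.688 (PHF5A), and in SPDYE1 (0.91), with 2.44 ± 0.766 and 1.11 ± 0.520. NBPF7 followed at 0.88, TRIM49B at 0.79 and NBPF25P at 0.75, the last with 1.77 ± 0.654 (PAF1) and 0.89 ± 0.465 (PHF5A). Toward PHF5A they were in NBPF18P (-0.74), with 1.61 ± 0.622 (PAF1) and 3.13 ± 0.870 (PHF5A), and in NPIPB8 (-0.66). PRAMEF18 followed at -0.61, with 1.94 ± 0.684 (PAF1) and 3.35 ± 0.901 (PHF5A), then TRIM64C at -0.56, with 1.66 ± 0.633 and 2.79 ± 0.822, and TBC1D3P1 at -0.52, with 1.11 ± 0.533 and 1.89 ± 0.696. These differences were picked as the most extreme of 64 in a pair of single libraries. The NBPF18P window overlaps that of S100A10, the NBPF25P window that of GPR89A and the TBC1D3P1 window that of RP11-178C3.7, so their signal cannot be assigned to the family copy alone.

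A pair of wider lists places the families. The 151 windows of relatives outside the 11 families (143 of USP, TRIM, TBC1D and golgin genes of other names and 8 of PDE4DIP, PKD1, PRAME, REXO1, REXO2, REXO4, SPDYA and SPDYC) had medians of 3.33 (PAF1) and 3.66 (PHF5A), and 5 and 6 lay at or under the floor. The 190 windows of other duplicated families had medians of 0.455 (PAF1) and 0.39 (PHF5A), and 115 and 113 lay at or under the floor. The FAM90A (28 windows) and DUX4L (21 windows) groups had medians of 0 in both libraries, as USP17L and REXO1L did. LRRC37 (16 windows) had medians of 2.26 (PAF1) and 3.34 (PHF5A). High single copies occurred there too, with ANKRD36BP1 at 10.44 (PAF1) and 9.05 (PHF5A) and ZNF705A at 9.33 and 10.11.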

How the data were processed

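ChIP-seq signal of a PAF1 and a PHF5A library of SW1990 cells was analysed, with 1 library per antibody. The deposited table holds the mean signal per promoter window on hg38, with no statement of its normalization in the sources used here. Bowtie2 2.2.3, bedtools, deepTools, Picard and Trim Galore are tools that the authors used per the submitters' processing notes, in an order and with settings not given there. For 100% of windows the deposited signal lay within 0.0101 of a whole number divided by the number of 150 bp bins touched (17 or 18). For PHF5A that quotient was multiplied by 1.00608. A fragment can touch several bins, so bin sums are not reads.

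Signals were compared as log2(signal + 0.5), centred on the median window of chromosomes 1 to 22. The dispersion behind counting errors was 4.33. It came from how 51588 windows that do not overlap divide their signal between PAF1 and PHF5A, and it includes any true difference between the antibodies. The counting floor is 3 counts times this dispersion. Errors and floors cover counting alone, and below the floor the errors are too small. Promoters of a RefSeq table (GRCh38.p14) were matched to windows by position and strand, and 165 of the 181 family windows overlap no other of their family. Keeping 1 of each overlapping group left 173.

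The members, lists and rules were chosen with earlier results of these data known. The named copies are the 2 highest and the lowest of each family, the outlying copies, the 5 largest differences between the antibodies in each direction, and the related single genes. NBPF3, NBPF4, NBPF9, GOLGA8A, GOLGA8J, GOLGA8T, TRIM49, REXO1L8P, REXO1L1P and the high copies of the wider lists were named after their values were seen. Windows on chromosome Y were not used here. Scripts were tested on simulated data. Alternatives were the pseudocount, the floor, the reference window, the neighbour distance, and leaving out pseudogene names or the largest family. The software was SciPy 1.17.1, Biopython 1.88, numpy 2.4.6, matplotlib 3.10.9 and pandas 2.3.3 under Python 3.11.15.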

Additional observations from a re-analysis of the deposited data

How the results depend on the processing

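Of 64 alternatives over 9 results, 46 were classed as leaving the value within its error or count range and 18 as moving it. The direction did not change in any. Against the median window, the family median moved with PAF1 to -3.33 (pseudocount of 0.1), -1.97 (pseudocount of 1), -1.19 (windows under the floor in both libraries left out) and -1.98 (mean over windows). With PHF5A it moved to -3.19 with the pseudocount of 0.1 and to -1.19 without windows under the floor. Counting listed zeros alone left 69 (PAF1) and 64 (PHF5A) windows in place of those at the floor. A floor with no dispersion left 81 (PAF1) and 77 (PHF5A), in place of 114 and 104. It was classed among the 46, but the counts at the floor depend on the dispersion. Against the neighbours, the PAF1 difference moved to -0.63 within 250 kb, -1.93 with a pseudocount of 0.1 and -0.08 without family windows under the floor, and the PHF5A difference moved to -0.66, -1.66 and -0.08. The median difference between the antibodies was 0.05, 0.04 and 0.03 with pseudocounts of 0.1 and 1 and with centring on total signal, and 0.10 without windows under the floor. Pseudocounts and the floor act by construction on windows near 0. For the neighbour distance the cause was not tested. Keeping TBC1D30, TBC1D31 and TBC1D32, and counting shared stretches of 36 or 75 bases, were added after the data were seen. With 36 and 75 bases, family windows with every stretch shared also had a median of 0. No paired analysis was possible because each antibody has 1 library. The depth cannot separate signals below the floor from 0.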

Other observations

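Arrays of at least 4 windows of the same family on 1 chromosome, with gaps of at most 500 kb, numbered 11. In 5 of them no inner window was above the higher of the end windows in either library, a count made after the values were seen. They are the PRAMEF array, the GOLGA8 array that ends in GOLGA8UP, the SPDYE array that begins with SPDYE7P, the TBC1D3 array that ends in TBC1D3J, and a TBC1D3 array that begins with TBC1D3K, where all windows lay under the floor and the TBC1D3K window overlaps the next. In arrays of few windows an end is often the highest by position alone. The number of arrays expected that way was not computed, so the count is not read as a trait of array ends. In the GOLGA8 array the 4 inner windows had medians of 0.055 (PAF1) and 0.08 (PHF5A) between GOLGA8J and GOLGA8UP. In the TRIM49 array the inner windows, TRIM49D1 and TRIM49D2, were the higher ones.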
